A study of Mus musculus with 39 samples.

Results

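The genes described here are 10 genes of muscle energy metabolism, Ckm, Ckmt2, Pygm, Pfkm, Pgam2, Eno3, Mb, Cox6a2, Ampd1 and Ak1. They were chosen by name, as the proteins or isoforms typical of muscle, with earlier results of these data known. The shares of all genes set beside them below are therefore descriptive. Each of the 10 was found by its symbol in both deposited count tables, so that they make up 10 of the 21561 genes the tables share. RNA-seq was done on the gubernaculum, the cord that guides the testis into the scrotum, and on the testis of male C57BL/6J mice, to ask what a cetacean form of the testicular hormone INSL3 does in place of the mouse hormone. WT and INSL3-KI mice were compared at postnatal days 8, 23 and 40 (P8, P23 and P40), and INSL3-KO mice at the first 2 of these ages. INSL3-KI mice are homozygous for the minke whale INSL3 cDNA, placed by homologous recombination at the mouse Insl3 locus under its native regulatory elements, with the selection cassette removed by Cre. INSL3-KO mice lack INSL3. The gubernaculum data comprise 5 groups of 3 biological replicates, 3 of them at P8 (1 per genotype) and 2 at P23 (WT and INSL3-KI). Testis, the reference tissue here, was sequenced in 8 groups of 3. The whole gubernaculum was taken, so fewer muscle cells and less of an mRNA per muscle cell cannot be told apart in these values.

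Muscle fibres hold ATP steady during contraction by several routes that these genes serve. Creatine kinases pass phosphate between creatine and ATP, glycogen breakdown and glycolysis make ATP from stored sugar, myoglobin and cytochrome c oxidase supply and use oxygen, and adenylate kinase with AMP deaminase removes the ADP and AMP that contraction leaves. The gubernaculum of rodents carries striated muscle, the cremaster, and INSL3 acts on this tissue through its receptor RXFP2. Most of these proteins have a second form, used outside muscle, that is encoded by another gene.

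The 39 libraries held 29861447 to 45260372 counted reads each. Insl3 itself was read 2722 to 3524 times in P8 WT testis and 15 to 33 times in P8 INSL3-KI testis, and it had 0 counts in the P8 INSL3-KI and INSL3-KO gubernaculum libraries, against 25 to 87 in P8 WT gubernaculum. At P23 the gubernaculum groups overlapped, with 12, 28 and 0 Insl3 counts in INSL3-KI and 27, 9 and 20 in WT. P40 INSL3-KI testis held 443 to 511 counts against 20183 to 29799 in WT. Reads were mapped to the mouse genome, so these counts do not give the level of the whale INSL3 mRNA. The paper reports that INSL3-KI mice express cetacean INSL3, by RT-PCR and Western blotting. The libraries labelled P8 INSL3-KO testis still held 613 to 906 Insl3 counts, whereas those labelled P23 INSL3-KO testis held 0 to 5. All INSL3-KO libraries stand in another table than the WT gubernaculum libraries, with another annotation, so genotype and table cannot be told apart in that comparison. The gene length implied by each table's counts and FPKM agreed within 10% for 9 of the 10 genes. It did not for Ckm, at 2820 bases for WT and INSL3-KI gubernaculum and 1453 for INSL3-KO. At P23, INSL3-KI library 2 stood apart with a summed skeletal muscle marker level of 21.4 FPKM against 499 and 658 FPKM in libraries 3 and 1, and WT library 3 held 629 FPKM of epididymis markers.

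The start regions of 3 of the 5 genes with 1 start entry are printed: Ckm, the most abundant in WT, Ckmt2, among those that fell furthest in INSL3-KI mice, and Pgam2. Eno3 and Pygm, the others with 1 start, are not printed. Each is the 250 bases before the RefSeq transcript start on GRCm38.p6, at chr7:19410844-19411093 (+ strand) for Ckm, chr13:91876886-91877135 (- strand) for Ckmt2 and chr11:5803797-5804046 (- strand) for Pgam2. Capitals mark the E-box, CANNTG, the letters that MyoD-family factors bind, and the MEF2 motif, searched on both strands.
Ckm: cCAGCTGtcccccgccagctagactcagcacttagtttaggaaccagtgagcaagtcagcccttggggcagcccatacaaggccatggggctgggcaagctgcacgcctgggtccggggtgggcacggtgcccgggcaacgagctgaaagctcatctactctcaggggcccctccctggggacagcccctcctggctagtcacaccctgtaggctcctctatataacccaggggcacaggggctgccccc
Ckmt2: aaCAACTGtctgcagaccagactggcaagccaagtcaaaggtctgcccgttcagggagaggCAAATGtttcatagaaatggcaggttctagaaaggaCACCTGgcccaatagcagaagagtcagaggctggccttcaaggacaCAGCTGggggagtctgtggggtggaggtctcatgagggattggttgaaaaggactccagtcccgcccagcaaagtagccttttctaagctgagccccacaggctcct
Pgam2: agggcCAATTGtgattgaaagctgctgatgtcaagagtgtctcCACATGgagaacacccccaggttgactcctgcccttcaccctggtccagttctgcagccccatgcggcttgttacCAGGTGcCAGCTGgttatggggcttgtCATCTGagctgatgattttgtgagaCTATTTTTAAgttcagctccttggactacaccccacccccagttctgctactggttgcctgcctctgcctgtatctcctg
The Ckm window held 1 E-box, CAGCTG, the Ckmt2 window 4 and the Pgam2 window 5, and the Pgam2 window also held the MEF2 match CTATTTTTAA at bases 80 to 71 before the start. The windows not printed held 1 E-box (Eno3) and 2 (Pygm), and neither held a MEF2 match. Over all start windows of the 8 genes with an entry (16 windows, since Mb, Ak1 and Pfkm have several starts), 15 held an E-box, 8 the E-box CAGCTG and 1 a MEF2 match. Of the 32851 windows of the same length over all genes, 66.2%, 13% and 2.92% held these letters. The serum response CArG box was in 0 of the 16 windows and the M-CAT box CATTCC in 1, against 1.47% and 12.6% of all windows. These are matches of letters and no sites of binding were measured.

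In P8 INSL3-KI gubernaculum all 10 genes were lower than in WT. They took 0.645%, 0.624% and 0.572% of all reads in the 3 WT libraries and 0.0211%, 0.0257% and 0.0222% in the INSL3-KI libraries. The 10 genes were called lower at an edgeR adjusted p under 0.01 and a change of at least 2-fold, where 9.7 percent of the 15500 genes tested were called lower, and their median log2 fold change was -6.01 against 0.02 over all genes tested. Every INSL3-KI library lay below every WT library for all 10 genes, which held for 30.5 percent of all genes tested. In P8 INSL3-KO gubernaculum 8 of the 10 genes were called lower, all but Ckmt2 and Mb, against 15.2 percent of all genes, with a median of -1.89 against 0.03. There the libraries did not overlap for 9 genes, all but Mb, against 35.8 percent of genes. Both comparisons use the same 3 WT libraries. The INSL3-KO libraries gave 0.156%, 0.168% and 0.163% of reads to the 10 genes, between the WT and INSL3-KI levels. Set directly against INSL3-KO, INSL3-KI was called lower for all 10 genes, with log2 differences from -1.20 for Pfkm to -8.93 for Ckmt2, where 10.5 percent of genes were called lower. Leaving out any 1 library kept the counts at 10, 8 and 10.

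**Figure D1:**
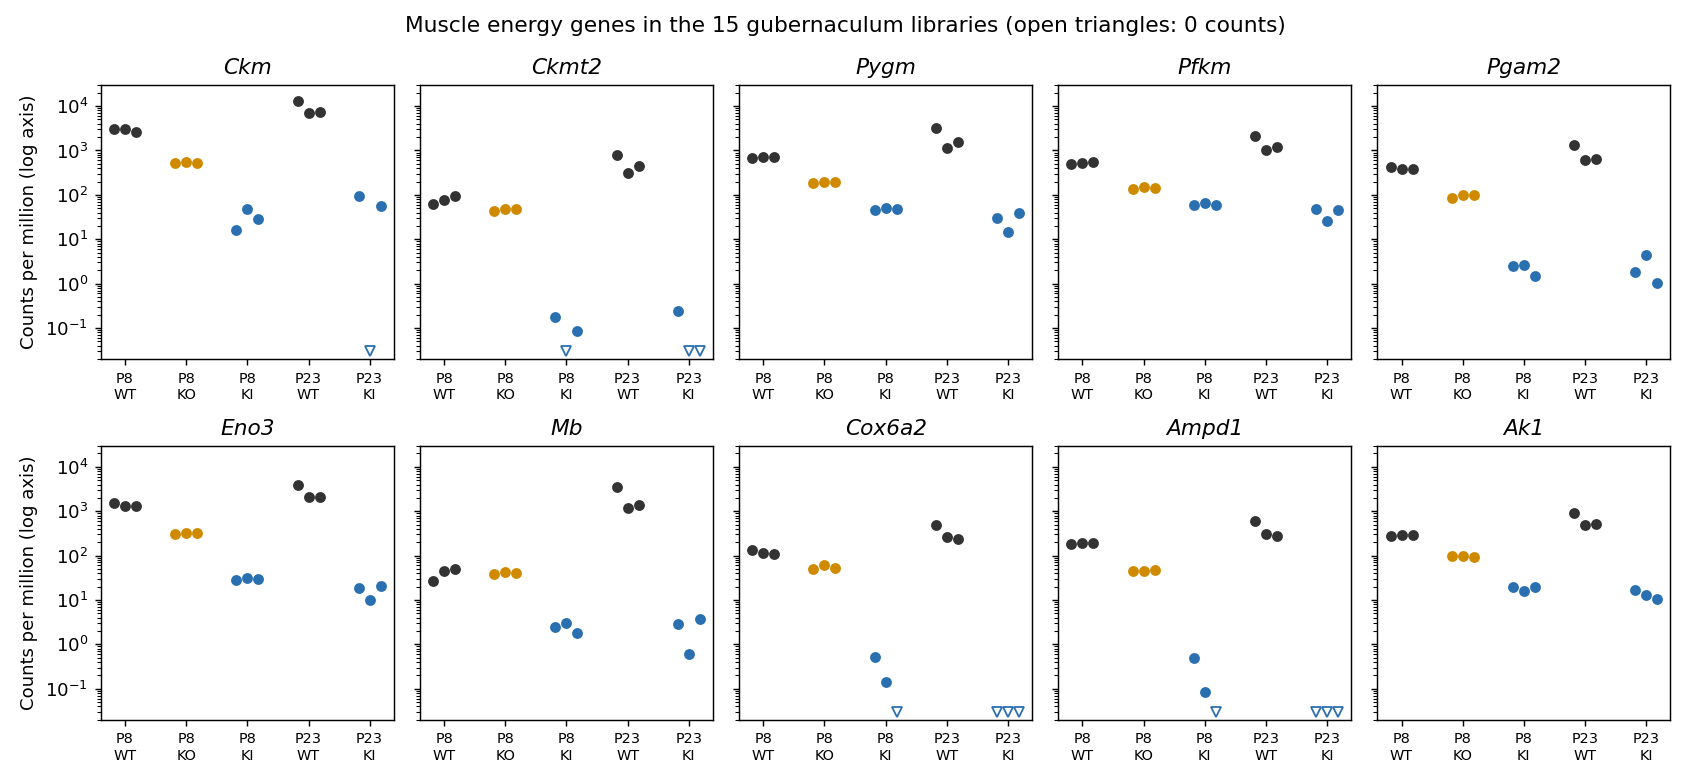
Counts scaled to library size (CPM, log axis) of the 10 genes in the 15 gubernaculum libraries, 1 point per library, black for WT, orange for INSL3-KO and blue for INSL3-KI, with open triangles for 0 counts. In every panel the blue points lie below the black ones of the same age, down to 0 counts for Cox6a2 and Ampd1 at P23, and the orange points lie between them at P8 except for Mb, where they lie among the WT points.

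Skeletal muscle markers moved with these genes. Of the 15 fibre markers, 14 were called lower in P8 INSL3-KI and 13 in P8 INSL3-KO gubernaculum. Of all genes, 9.7 and 15.2 percent were called lower in these comparisons, and 14.4 and 15.5 percent higher. The summed level of the fibre markers was 21927 to 23179 FPKM in WT, 6997 to 7808 FPKM in INSL3-KO and 588 to 1006 FPKM in INSL3-KI libraries. In INSL3-KI libraries 3 of the 15, Acta1, Casq1 and Tnnc2, exceeded 1 FPKM in every library, and Myog had 4, 0 and 3 counts. The 5 muscle progenitor markers summed to 118 to 139 FPKM in WT, 28.6 to 29.5 FPKM in INSL3-KO and 0.116 to 0.369 FPKM in INSL3-KI. Smooth muscle markers went the other way, with 7 of 8 called higher in INSL3-KI (8007 to 9476 FPKM summed, against 546 to 756 FPKM in WT) and 6 of 8 in INSL3-KO (3585 to 3827 FPKM), and all 5 white adipocyte markers were called higher in both (719 to 960 and 1652 to 1891 FPKM, against 85.5 to 96.1 FPKM). The INSL3-KO libraries also held epididymis markers at 673 to 745 FPKM and hepatocyte markers at 72.7 to 3492 FPKM, against at most 1.06 and 13.4 FPKM in WT. What part these cell types have in the levels of the 10 genes was not tested.

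Of the phosphocreatine enzymes, Ckm encodes the cytosolic creatine kinase of muscle and Ckmt2 the sarcomeric form in mitochondria. Ckm (GRCm38 chromosome 7, 19404776 to 19422841, + strand) had 3127, 3058 and 2549 CPM (counts scaled to library size over the 15 gubernaculum libraries) in P8 WT, 531, 553 and 532 in INSL3-KO, and 16.5, 48.3 and 28.3 in INSL3-KI. The 3 genotypes were fully separated, with WT highest and INSL3-KI lowest, and the INSL3-KI libraries were the most spread relative to their mean. The log2 fold change was -6.51 (SE 0.43, adjusted p = 8.82e-06) in INSL3-KI and -2.44 (SE 0.09, adjusted p = 1.98e-06) in INSL3-KO against WT. Here and below, SE is the size of the log2 fold change divided by the square root of the edgeR F statistic. Because the gene model of Ckm differs between the tables, the INSL3-KO value depends on the unit, and limma gave -1.32 on log2(FPKM + 1). Exons of Ckm share 15.5% of their bases with the antisense gene A930016O22Rik, those of Ckmt2 5.65% with 1700119I11Rik, those of Cox6a2 10.3% with Itgad and those of Pfkm 10.7% with Gm26513 and Senp1, and whether counting used strand is not given in the sources used here.

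Ckmt2 (chromosome 13, 91853387 to 91876885, - strand) had 63.4, 76.6 and 96.4 CPM in P8 WT, 43.1, 47.9 and 47.2 in INSL3-KO, and 0.177, 0 and 0.0875 in INSL3-KI. It was lower than WT in INSL3-KO, without overlap, and all but lost in INSL3-KI, where the 3 libraries held 7, 0 and 3 counts. The log2 fold change was -9.66 (SE 0.42, adjusted p = 1.18e-06) in INSL3-KI. In INSL3-KO it was -0.78 (SE 0.15, adjusted p = 0.00298), which passed the p threshold and not the 2-fold limit.

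Pygm, the glycogen phosphorylase of muscle, which releases glucose phosphate from glycogen, lies on chromosome 19 (6384399 to 6398459, + strand). It had 679, 713 and 705 CPM in P8 WT, 186, 190.2 and 192 in INSL3-KO, and 46.6, 51.5 and 48.5 in INSL3-KI. The libraries of each genotype were tightly grouped and the 3 genotypes did not overlap. Its log2 fold change was -3.80 (SE 0.11, adjusted p = 2.01e-07) in INSL3-KI and -1.89 (SE 0.06, adjusted p = 1.39e-06) in INSL3-KO.

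The 3 glycolytic genes stand at early and late steps of the pathway. Pfkm, the muscle phosphofructokinase of the committed step (chromosome 15, 98092589 to 98132451, + strand), had 499.7, 528 and 549 CPM in P8 WT, 135, 147 and 142 in INSL3-KO, and 59.8, 65.8 and 57.9 in INSL3-KI. It showed the smallest fall of the 10 in INSL3-KI, with a log2 fold change of -3.06 (SE 0.11, adjusted p = 5.30e-07), and -1.90 (SE 0.07, adjusted p = 2.18e-06) in INSL3-KO. Its groups were still fully separated. Pgam2, the muscle phosphoglycerate mutase (chromosome 11, 5801640 to 5803733, - strand), had 424, 384 and 381 CPM in WT, 83.9, 100.2 and 102 in INSL3-KO, and 2.46, 2.56 and 1.49 in INSL3-KI. It was the glycolytic gene that fell furthest, with -7.46 (SE 0.22, adjusted p = 2.09e-07) in INSL3-KI and -2.06 (SE 0.10, adjusted p = 4.06e-06) in INSL3-KO. Eno3, the muscle enolase of the next step (chromosome 11, 70657202 to 70662513, + strand), had 1546, 1318 and 1322 CPM in WT, 306, 321 and 327 in INSL3-KO, and 28.8, 30.7 and 29.7 in INSL3-KI. No library of Eno3 crossed between genotypes, and its log2 fold change was -5.51 (SE 0.14, adjusted p = 1.25e-07) in INSL3-KI and -2.13 (SE 0.08, adjusted p = 2.12e-06) in INSL3-KO.

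Mb, which encodes the oxygen store myoglobin (chromosome 15, 77015487 to 77050670, - strand, 31.9% of its exon bases shared with Apol6 and Gm49540 on the opposite strand), had 27.1, 44.8 and 49.2 CPM in P8 WT, 39.5, 43.6 and 41.4 in INSL3-KO, and 2.48, 3.07 and 1.81 in INSL3-KI. INSL3-KO and WT libraries overlapped, and INSL3-KI libraries lay below both. The log2 fold change was 0.04 (SE 0.21, adjusted p = 0.883) in INSL3-KO, and without WT library 1 it turned to -0.18. In INSL3-KI it was -3.99 (SE 0.29, adjusted p = 1.58e-05). Cox6a2, the heart and muscle form of a cytochrome c oxidase subunit (chromosome 7, 128205435 to 128206387, - strand), had 137, 116 and 111 CPM in WT, 49.8, 61.0 and 52.7 in INSL3-KO, and 0.507, 0.141 and 0 in INSL3-KI. INSL3-KO held a middle level and INSL3-KI 20, 5 and 0 counts. Its log2 fold change was -9.00 (SE 0.49, adjusted p = 3.18e-06) in INSL3-KI and -1.15 (SE 0.11, adjusted p = 9.82e-05) in INSL3-KO, where scaling by library size alone left it short of the 2-fold limit.

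Of the nucleotide enzymes, Ampd1, the AMP deaminase of muscle (chromosome 3, 103074014 to 103099720, + strand), had 182, 196 and 191 CPM in P8 WT, 44.1, 45.9 and 47.8 in INSL3-KO, and 0.481, 0.0845 and 0 in INSL3-KI. Its INSL3-KI libraries held 19, 3 and 0 counts, and its fitted fall was the largest of the 10 genes at P8, within 1 SE of that of Ckmt2. The log2 fold change was -9.82 (SE 0.49, adjusted p = 2.03e-06) in INSL3-KI and -2.05 (SE 0.07, adjusted p = 1.54e-06) in INSL3-KO. Ak1, the adenylate kinase that remakes ATP from ADP in the cytosol (chromosome 2, 32621758 to 32635058, + strand), had 279, 285 and 285 CPM in WT, 98.3, 99.0 and 92.8 in INSL3-KO, and 20.01, 16.3 and 19.9 in INSL3-KI. It fell less than Ampd1 and its groups did not overlap, with -3.88 (SE 0.11, adjusted p = 2.08e-07) in INSL3-KI and -1.55 (SE 0.07, adjusted p = 2.62e-06) in INSL3-KO.

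**Figure D2:**
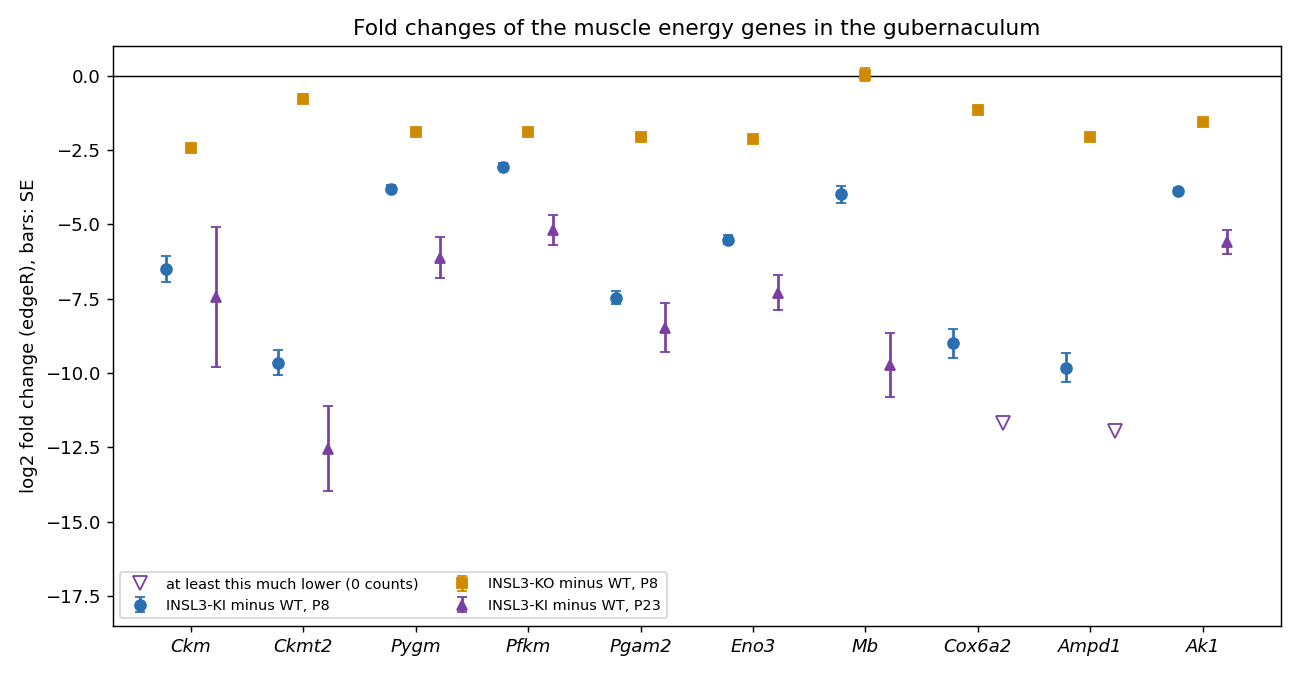
log2 fold changes of the 10 genes against WT of the same age (edgeR, bars are SE): circles for INSL3-KI at P8, squares for INSL3-KO at P8 and triangles for INSL3-KI at P23, with open triangles for lower bounds on the fall where every INSL3-KI library had 0 counts. At P8 the INSL3-KI values run from -3.06 to -9.82 and the INSL3-KO values from 0.04 to -2.44, where the Ckm value crosses different gene models.

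The genes did not fall evenly in INSL3-KO gubernaculum. Per 1000 FPKM of 14 skeletal muscle markers with the same implied length in both tables, Mb stood at 0.976, 1.59 and 1.75 FPKM in P8 WT and at 4.94, 4.91 and 4.78 in INSL3-KO. Ckmt2 stood at 1.60, 1.93 and 2.53 in WT and at 3.98, 3.99 and 4.05 in INSL3-KO. Cox6a2 stood at 7.55, 6.35 and 6.34 in WT and at 10.4, 11.5 and 10.2 in INSL3-KO. The mRNAs of these 3 mitochondrial or oxygen-binding proteins were thus higher relative to fibre markers in every INSL3-KO library than in any WT library, by 1.76, 0.99 and 0.66 on the log2 scale of the group means. The glycolytic, glycogen and nucleotide genes moved by 0.22 (Ak1) to -0.38 (Eno3) on that scale, and Ckm, with its differing gene models, by 0.29. Ak1 and Ckm were also higher in every INSL3-KO library than in any WT library, Ak1 at 5.77 to 6.53 against 5.07 to 5.38. Eno3, Pgam2 and Ampd1 were lower in every INSL3-KO library than in any WT library. In P23 WT gubernaculum Mb reached 36.2, 18.3 and 26.2 FPKM per 1000 and Ckmt2 5.76, 3.40 and 6.00, while Cox6a2, at 7.88, 6.34 and 6.89, overlapped its P8 values. In P8 INSL3-KI the marker level was low and was mainly that of Acta1. Acta1 had a mean of 1044 CPM, scaled over P8 and P23 INSL3-KI, against 48.1 for Casq1 and 8.40 for Tnnc2. The INSL3-KI ratios are thus mainly ratios to Acta1. On the log2 scale of the group means, Ckmt2 and Cox6a2 went the other way in P8 INSL3-KI, at -4.40 and -3.63. So did Ampd1 (-4.57), Pgam2 (-2.16) and Ckm (-1.30). Pfkm (2.20), Pygm (1.46), Ak1 (1.39) and Mb (1.28) were higher on this ratio than in every WT library, and Eno3 (-0.24) overlapped WT. These ratios are a description and were not tested.

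**Figure D3:**
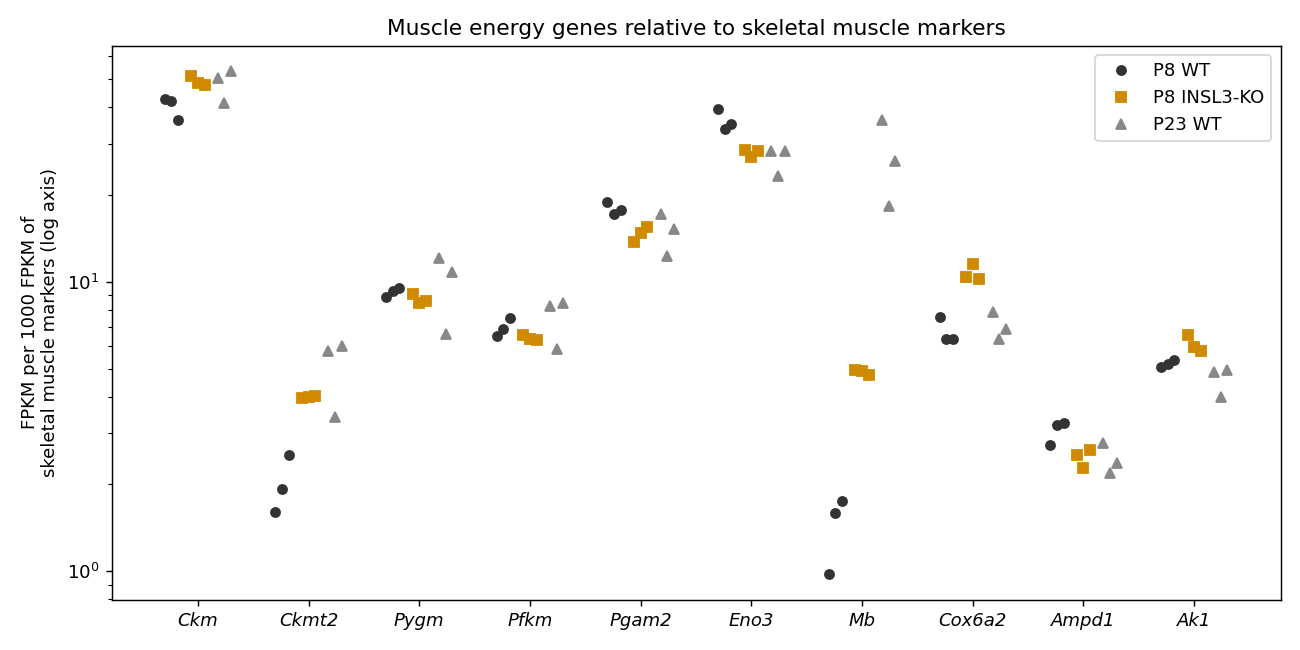
FPKM of each gene per 1000 FPKM of 14 skeletal muscle markers (log axis) in P8 WT (black circles), P8 INSL3-KO (orange squares) and P23 WT (grey triangles) gubernaculum, 1 point per library. Mb lies at 0.976 to 1.75 in P8 WT, at 4.78 to 4.94 in INSL3-KO and at 18.3 to 36.2 at P23, and Eno3 and Pgam2 lie lower in INSL3-KO than in WT.

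In WT gubernaculum the 10 genes differed in level and in their course with age. In FPKM, which allows for gene length, the order at P8 was Ckm (915 ± 108, SD, n = 3), Eno3 (818 ± 81.2), Pgam2 (405 ± 26.5), Pygm (209 ± 5.32), Pfkm (157 ± 6.54), Cox6a2 (153 ± 18.5), Ak1 (118 ± 1.51), Ampd1 (69.2 ± 5.65), Ckmt2 (45.5 ± 9.20) and Mb (32.4 ± 8.68). Ckm and Eno3, Pfkm and Cox6a2, and Ckmt2 and Mb overlapped in their libraries, and the other neighbours did not. At P23 Mb, the last at P8, stood next to Ckm at 1465 ± 784 FPKM against 2554 ± 649. These FPKM of Ckm rest on a gene length of 2820 bases, against 1453 in the other annotation. The overlap of Ckm with Eno3 and its distance from Mb therefore depend on the gene model. All 10 genes had every P23 WT library above every P8 WT library, against 27.4 percent of genes, and 5 passed the test for a rise, where 6.17 percent of genes did. Mb had 3545, 1193 and 1392 CPM at P23, and its log2 fold change from P8 was 5.65 (SE 0.53, adjusted p = 0.000894). Ckmt2, at 788, 306 and 441 CPM, rose by 2.69 (SE 0.35, adjusted p = 0.00235). Ckm, at 12703, 6871 and 7245 CPM, rose by 1.61, and Pfkm and Cox6a2 rose by 1.46 and 1.43, whereas Pygm, Ak1, Pgam2, Ampd1 and Eno3 gave 1.48, 1.18, 1.11, 1.07 and 0.92 without passing at 0.01. P23 WT library 1 was the highest of the 3 for every one of the 10 genes. Leaving out any of the 3 P8 WT libraries left 1 of the 5 calls, and leaving out P23 WT library 3 left 3. At an adjusted p under 0.05 with no fold limit all 10 passed, and the share of all genes under that rule is not given here. DESeq2 called 9 higher, against 8.85 percent of genes.

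In INSL3-KI gubernaculum none of the genes passed the test for a change with age. Of the 7 genes with enough reads to test, 0 were called between P8 and P23 by edgeR or by DESeq2, 1 had an unadjusted p under 0.05, while edgeR called 0 percent of all genes tested and DESeq2 3.77 percent. For 3 of the 7, Pygm, Pfkm and Eno3, every P23 library lay below every P8 library, against 16.6 percent of genes. For 0 of the 7 did every P23 library lie above, against 13.9 percent. At P23 Mb had 2.81, 0.616 and 3.69 CPM and Pygm 29.6, 14.4 and 39.8 CPM. Pfkm had 47.5, 25.7 and 45.6 CPM, Ak1 16.5, 13.03 and 10.3, and Eno3 19.0, 9.98 and 20.8. Ckm had 95.9, 0 and 56.3 CPM, so that library 2, which also had the fewest fibre marker reads, held none of it. Pgam2 had 1.79, 4.50 and 1.04 CPM and Ckmt2 0.248, 0 and 0. Cox6a2 and Ampd1 had 0 counts in all 3 libraries, as had Myog. The reads of Ckm that were left ran with those of Acta1, which had 30263, 413 and 25776 counts in these libraries.

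Against P23 WT, all 10 genes lay below every WT library, as did 21.6 percent of genes, and 9 were called lower, against 2.35 percent of genes. Pygm, with 3199, 1151 and 1539 CPM in P23 WT, fell by 6.13 on the log2 scale (SE 0.69, adjusted p = 0.00652). Eno3, with 3829, 2063 and 2060.0 CPM in WT, fell by 7.31 (SE 0.59, adjusted p = 0.00252), and Pgam2, with 1328, 622 and 630.5, fell by 8.47 (SE 0.83, adjusted p = 0.00426). Pfkm, with 2166, 1009.8 and 1193 CPM in WT, fell by 5.19 (SE 0.50, adjusted p = 0.00426), again the smallest estimate. Mb fell by 9.73 (SE 1.08, adjusted p = 0.00614) and Ckmt2 by 12.55 (SE 1.43, adjusted p = 0.00672). Ckmt2 had reads in INSL3-KI library 1 only, so the size of its fall is uncertain. Its log2 fold change ran from -17.07 to -11.94 leaving out 1 library and from -12.99 to -7.93 over the other alternatives. Ak1, with 928, 499 and 505 CPM in WT, fell by 5.59 (SE 0.41, adjusted p = 0.00204). Cox6a2, with 493, 261 and 232 CPM in WT, was at least 3260-fold lower, and Ampd1, with 609, 310.4 and 278 CPM, at least 3958-fold lower, both against a floor of 3 counts per library. The gene not called was Ckm, at -7.43 (SE 2.36, adjusted p = 0.0885). Its INSL3-KI libraries spread from 0 to 95.9 CPM.

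The P23 calls rested on single libraries more than those at P8. Without INSL3-KI library 2 all 10 genes were called, and without INSL3-KI library 1, INSL3-KI library 3, WT library 1, WT library 2 or WT library 3 the counts were 0, 6, 4, 0 and 1. Without both libraries that stood apart, INSL3-KI library 2 and WT library 3, 7 were called. The share of all genes called in these fits is not given here. White adipocyte markers summed to 447 to 11255 FPKM and epididymis markers to 1.40 to 5397 FPKM in the INSL3-KI libraries at P23, and their part in the spread was not tested. The difference of the INSL3-KI effect between ages was tested as an interaction, and 0 of the 10 genes were called by edgeR, against 0.194 percent of genes called lower. All 10 gave a negative estimate, 7 had an unadjusted p under 0.05, and DESeq2 called 7, against 4.47 percent of genes that it called lower. Mb, the largest among the genes with reads in every library, gave -5.76 (SE 0.89, adjusted p = 0.0118). Without INSL3-KI library 2 or INSL3-KI library 3 at P23, 1 gene was called.

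In INSL3-KI gubernaculum the muscle form held a smaller share of its family than in WT in the 8 families compared. Ckm made up 93.7% ± 1.22 (SD, n = 3) of the FPKM of Ckm and Ckb, the brain creatine kinase, in P8 WT and 2.76% ± 1.02 in INSL3-KI. Pgam2 made up 86.2% ± 1.42 of phosphoglycerate mutase in WT, 51.5% ± 3.63 in INSL3-KO and 2.93% ± 1.11 in INSL3-KI. Ampd1 made up 83.0% ± 1.81, 58.7% ± 1.93 and 0.328% ± 0.444 of the AMP deaminases. Pygm made up 91.6% ± 0.915, 58.4% ± 0.573 and 15.4% ± 0.464 of the glycogen phosphorylases, and Eno3 70.5% ± 1.64, 56.6% ± 1.52 and 11.4% ± 1.41 of the enolases. In each of these families the order was WT, INSL3-KO, INSL3-KI with no overlap. Cox6a2 went from 50.9% ± 2.85 to 21.1% ± 0.805 and 0.121% ± 0.152. Pfkm kept the largest part, with 89.2% ± 1.51, 66.7% ± 0.222 and 39.9% ± 3.56. Ckmt2 differed from the rest in INSL3-KO, where it still made up 98.7% ± 0.361 of mitochondrial creatine kinase against 99.6% ± 0.555 in WT. At P23 each of the 8 muscle forms held more of its family in every WT library than in any INSL3-KI library with reads of the family, from 76.2% ± 10.2 (Cox6a2) to 99.7% ± 0.107 (Ckmt2) in WT.

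**Figure D4:**
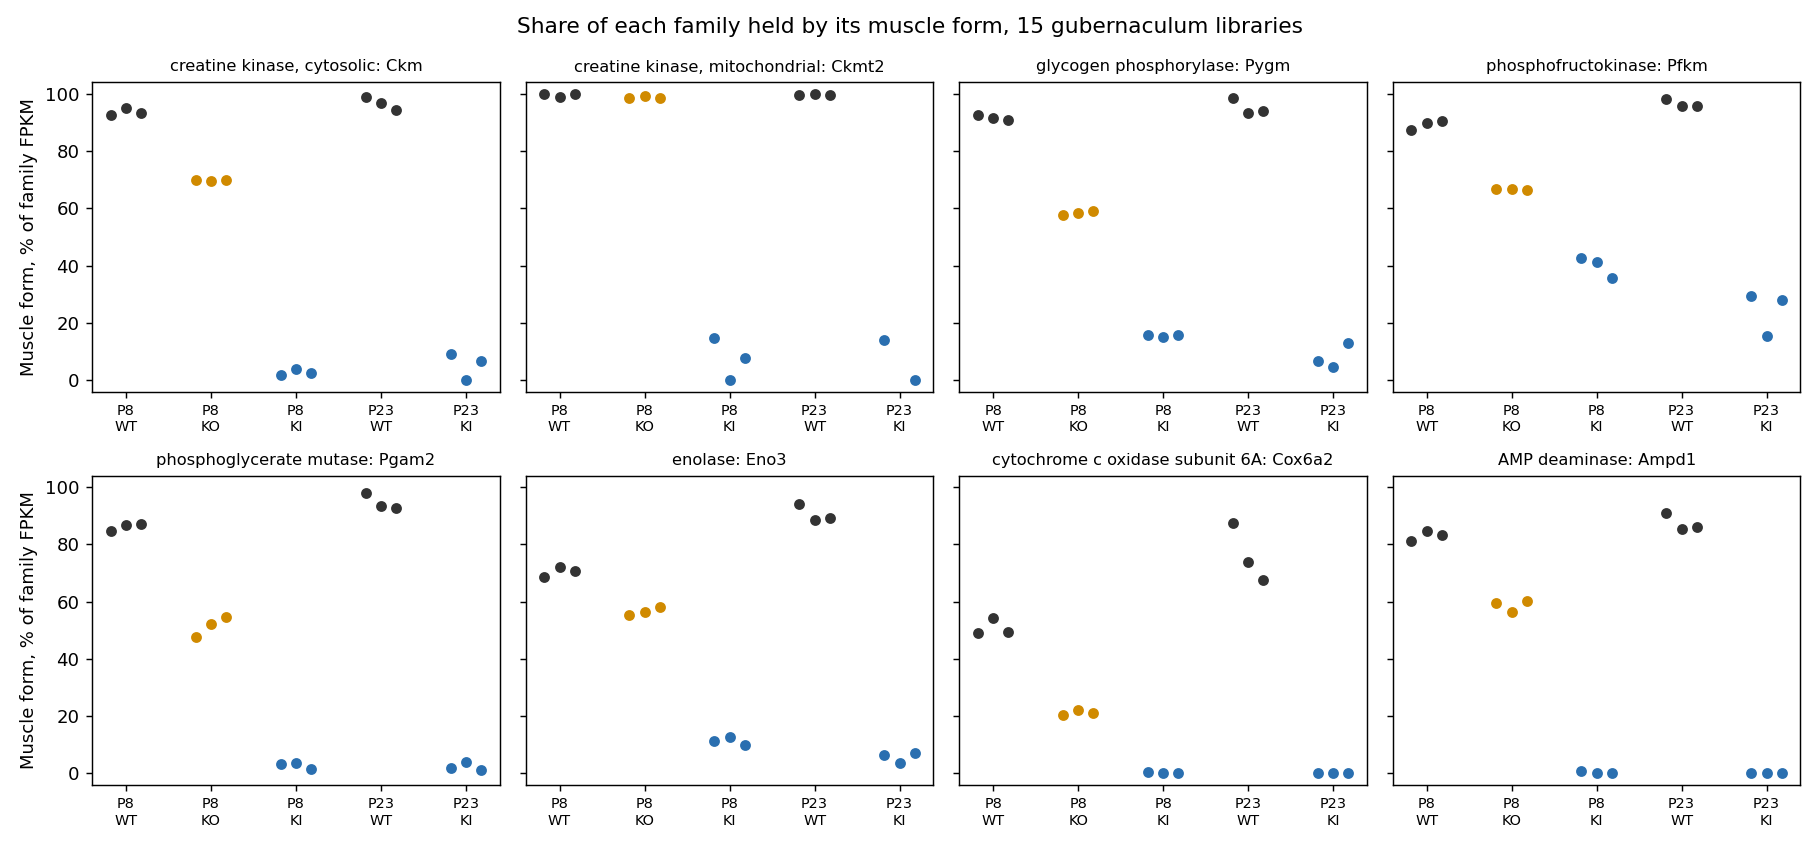
Share of each enzyme family's summed FPKM held by the muscle form, in percent, in the 15 gubernaculum libraries, 1 point per library, black for WT, orange for INSL3-KO and blue for INSL3-KI. At P8 the mean share falls from 50.9% to 99.6% in WT to at most 39.9% in INSL3-KI, and Ckmt2 in INSL3-KO stays near WT.

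Among the 16 counterpart genes themselves, 3 rose and 2 fell in P8 INSL3-KI against WT, with a median log2 fold change of 0.26. These shares, 18.8% and 12.5%, lie near the 14.4 percent of all genes called higher and the 9.7 percent called lower. Ckb rose by 2.45, Pygb, the brain glycogen phosphorylase, by 2.26 and Pygl, the liver form, by 1.70, and Eno1 fell by 1.12 and Ak4 fell by 1.38. Scaled by library size alone, Eno1 was no longer called, at -0.80, and Pfkl was called higher at 1.06. Among counterparts not called were Ckmt1 (2.04), Pfkl (0.74), Cox6a1 (0.62), Ampd2 (0.38), Ak3 (0.26), Pgam1 (0.25), Pfkp (0.03), Cygb (-0.01), Eno2 (-0.08) and Ampd3 (-0.12). In P8 INSL3-KO, Ckb rose by 1.20, Pygl rose by 1.38 and Eno1 fell by 1.13, again a fall that was not called by library size alone, where 15.5 percent of all genes were called higher and 15.2 percent lower. Against INSL3-KO, INSL3-KI had higher Ckb (1.22) and Pygb (1.27). At P23 the liver phosphofructokinase Pfkl was the only counterpart called in INSL3-KI, higher by 1.92, where 0.212 percent of all genes were called higher, and it was not called by library size alone.

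The other genes of glycogen handling followed in part. Of 15, 7 were lower and 0 higher in P8 INSL3-KI (median -0.98), 7 lower and 0 higher in INSL3-KO (median -0.92), and 3 lower in P23 INSL3-KI (median -1.85). The share called lower was 46.7% at P8 in both genotypes and 20% at P23, against 9.7, 15.2 and 2.35 percent of all genes. The largest falls at P8 were those of Ppp1r3a, the muscle glycogen-targeting subunit of protein phosphatase 1, with -8.43 in INSL3-KI and -1.42 in INSL3-KO, and of Phkg1, the muscle catalytic subunit of phosphorylase kinase, with -4.21 and -1.82. Stbd1, a glycogen-binding protein, gave -3.06 and -1.42. Ppp1r3a, Stbd1 and Epm2a were called lower at P23, at -8.11, -2.63 and -2.32, and Phkg1 gave -3.56 there, not called.

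Of 20 genes of glucose uptake and glycolysis, 10 fell and 5 rose in P8 INSL3-KI (median -1.21), 7 fell and 4 rose in INSL3-KO (median -0.42) and 1 fell at P23 (median -1.19). Of the list 50% fell and 25% rose in INSL3-KI, where 9.7 and 14.4 percent of all genes did. In INSL3-KO 35% fell, against 15.2 percent of all genes, and 20% rose, near the 15.5 percent of all genes. The share that fell at P23 was 5%, against 2.35 percent. Fbp2, the muscle fructose bisphosphatase, gave -7.76 in INSL3-KI and -1.80 in INSL3-KO, the lactate exporter Slc16a3 gave -2.64 and -2.58, and Aldoa, the muscle aldolase, gave -2.46 and -1.19. Among those that rose, Aldoc, the brain aldolase, gave 2.38 and 1.55 and Pfkfb1, a fructose bisphosphate regulator, gave 2.17 and 3.41. Pfkfb3 (1.68 and 2.34) and Gpd1 (1.34 and 2.21) also rose in both, and Ldhb rose by 1.03 in INSL3-KI. The gene that fell at P23 was Tpi1, by 2.40. At P23 Fbp2 gave -7.13 and Gapdh -3.78, and neither passed the test. By library size alone the P8 INSL3-KI split was 8 lower and 7 higher.

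Of 20 genes of fatty acid and mitochondrial oxidation, 8 fell and 1 rose in P8 INSL3-KI (median -0.88), and 3 fell and 3 rose in INSL3-KO, where the median was -0.12 and turned to 0.05 by library size alone. In INSL3-KO that is 15% each way, close to the 15.2 percent of all genes called lower and 15.5 percent higher, whereas the 40% that fell in INSL3-KI stood against 9.7 percent. Cpt1b, the muscle carnitine palmitoyltransferase, gave -6.18 in INSL3-KI and -2.04 in INSL3-KO. Fabp3, the heart and muscle fatty acid binding protein, gave -5.12 in INSL3-KI and -0.83 in INSL3-KO, not called, and the cytochrome oxidase subunit Cox8b gave -3.60 and 0.29, not called. Slc27a1 was the gene that rose in INSL3-KI, by 2.27. In INSL3-KO, Hadha (-1.51) and Coq8a (-1.23) were lower beside Cpt1b, and Cd36 (1.60, with differing lengths between the tables), Cpt2 (1.16) and Acadm (1.07) were higher. At P23, 1 gene was called lower, the ADP/ATP carrier Slc25a4 at -3.28 (median -0.58), and Fabp3 (-7.05) and Cpt1b (-5.98) did not pass. That is 5% of the list, against 2.35 percent of all genes.

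Creatine synthesis and the purine nucleotide cycle had 8 genes tested of 9. In P8 INSL3-KI 3 fell and 1 rose (median -0.51), in INSL3-KO 4 fell and 1 rose (median -0.91), and at P23 1 fell (median -1.38). The share that rose, 12.5% in both, was below that of all genes (14.4 and 15.5 percent). The share that fell was 37.5% and 50% at P8 and 12.5% at P23, against 9.7, 15.2 and 2.35 percent of all genes. Adss1, the muscle adenylosuccinate synthase that works with Ampd1, gave -4.88, -1.65 and, at P23, -6.78, all called. Gatm and Gamt, which make creatine, gave -4.74 and -3.32 in INSL3-KI and -2.20 and -1.96 in INSL3-KO, and Gatm gave -2.30 at P23, not called. Ak5 rose by 1.84 in INSL3-KI, and in INSL3-KO Adsl fell by 1.13, a call lost by library size alone, and Slc16a12 rose by 2.63.

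Of 16 regulators of muscle energy metabolism, 10 fell and 0 rose in P8 INSL3-KI (median -1.24), 7 fell in INSL3-KO (median -0.99) and 3 fell at P23 (median -0.99). These are 62.5%, 43.8% and 18.8% of the list, against 9.7, 15.2 and 2.35 percent of all genes. By library size alone 6 fell in P8 INSL3-KI. The nuclear receptor Esrrb gave -5.94 in INSL3-KI, -2.76 in INSL3-KO and -5.83 at P23, all called, though its implied length differs between the tables. Mef2c, of the family that binds the MEF2 motif printed above, gave -3.81 in INSL3-KI and -2.59 in INSL3-KO, not called, and Perm1, a regulator of mitochondrial genes in muscle, gave -5.26 at P23, called, as was Mef2c there at -4.73.

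The mean profile of the 10 genes over the 15 gubernaculum libraries was most like that of Jph1 (Pearson r = 0.993), Jsrp1 (0.993), Mybpc2 (0.992), Shisa2 (0.992) and Txlnb (0.992), out of 16342 genes. Jph1 and Jsrp1 encode proteins of the junction between the cell membrane and the calcium store of muscle, and Mybpc2 the fast form of myosin-binding protein C. The members' own r with this mean, in which each takes part, ran from 0.905 (Ckm) to 0.995 (Eno3). The libraries fall into groups that differ several-fold in muscle marker reads, so these values describe that division.

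The P8 testis held little of these mRNAs. All 10 were called higher in P8 WT gubernaculum than in P8 WT testis, where 14.1 percent of genes were, and no library overlapped, as for 33.9 percent of genes. The log2 difference ran from 3.57 (Pfkm) to 11.76 (Ampd1), and Ckmt2, with 0 counts in the 3 testis libraries, was at least 888.7-fold higher in gubernaculum. Pfkm, at 18.7, 18.6 and 16.9 FPKM, Pygm, at 9.49, 11.3 and 13.3, and Eno3, at 6.85, 6.09 and 6.502, were the highest of the 10 in P8 WT testis. In P8 INSL3-KI testis Pfkm had 18.3, 19.2 and 18.2 FPKM and Ak1 2.05, 2.28 and 2.01 against 1.93, 2.09 and 2.86 in WT. Both genotypes overlapped for Ak1, and Pfkm differed by -0.09 on the log2 scale (SE 0.08, adjusted p = 0.437), a sign that turned by library size alone. Of 8 genes tested, 4 had an unadjusted p under 0.05, 3 of them lower. By edgeR, Ckm gave -1.99 (adjusted p = 0.0316), Pygm -0.69 (adjusted p = 0.0189) and Eno3 0.97 (adjusted p = 0.0994), not called. Cox6a2 alone was called, lower, where 3.25 percent of genes were. It had 20, 34 and 30 counts in WT and 0 in the 3 INSL3-KI libraries, at least 8.62-fold lower (adjusted p = 0.00714). The call was lost in 5 of the 6 fits that left out 1 library, all but that without INSL3-KI library 2, and with a replicate block. INSL3-KI testis library 2 stood apart with 929 counts of Pgam2 against 28 and 31 in the others. In the libraries labelled P8 INSL3-KO testis, 0 of 8 genes were called by edgeR or DESeq2 and 4 had an unadjusted p under 0.05, where edgeR called 8.37 percent of genes lower and 5.44 percent higher and DESeq2 15.4 percent in either direction.

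The INSL3-KI effect at P8 was tested for a difference between the tissues. Ckmt2 and Ampd1, with at most 10 counts in any P8 INSL3-KI or WT testis library, had no testis effect to compare. Of the 8 genes tested in both tissues, 6 were called more negative in gubernaculum, against 9.03 percent of genes. Mb and Cox6a2 gave -2.01 (SE 1.22) and -1.34 (SE 3.90), not called, with 0 counts in 2 and 3 of the INSL3-KI testis libraries. Ak1 gave -3.65 (SE 0.20, adjusted p = 5.01e-07), Pfkm -2.96 (SE 0.12, adjusted p = 9.39e-08), Pygm -3.10 (SE 0.18, adjusted p = 6.09e-07) and Eno3 -6.46 (SE 0.45, adjusted p = 2.29e-06). The 6 calls stood without any 1 library, and Pgam2 moved from -10.62 to -7.00 without INSL3-KI testis library 2.

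Some of the 10 genes were abundant in older WT testis. At P23 the WT and INSL3-KO testis libraries stand in the second table and the INSL3-KI libraries in the first, so INSL3-KI and table cannot be told apart among the P23 testis values, while all P40 libraries share the first table. Pgam2, known to be made in male germ cells as well as in muscle, had 617, 734 and 728 FPKM in P23 WT testis and 732, 713 and 666 FPKM at P40, close to its 795 ± 284 FPKM in P23 WT gubernaculum. In P23 INSL3-KI testis it had 457, 502 and 222 FPKM and in INSL3-KO 3.12, 2.63 and 4.43. In P40 INSL3-KI testis it had 217, 28.1 and 32.5 FPKM, below every WT library, and its log2 fold change of -3.50 (SE 0.91, adjusted p = 0.0132) did not pass. Ak1 had 65.0, 76.2 and 79.1 FPKM in P23 WT testis, 19.2, 20.7 and 9.77 in INSL3-KI and 4.40, 5.34 and 4.60 in INSL3-KO, fully separated in that order. At P40 it had 68.1, 69.9 and 59.2 FPKM in WT and 9.06, 5.66 and 6.42 in INSL3-KI, and it fell by 3.84 on the log2 scale (SE 0.26, adjusted p = 0.000174). Ckmt2 had 8.34, 9.92 and 11.7 FPKM in P23 WT testis and at most 2.10 in INSL3-KI and 0.114 in INSL3-KO testis, and it fell by 4.40 at P40 (adjusted p = 0.00266). At P40, 5 of the 7 genes tested were lower in INSL3-KI testis, where 22.1 percent of genes were, with Pfkm at -1.92, Ckm at -1.81 and Eno3 at -1.75. Pygm was higher, at 5.45, 12.1 and 9.90 FPKM against 1.66, 1.45 and 1.79 in WT (log2 fold change 1.86, adjusted p = 0.00157), where 25.6 percent of genes were. Without P40 WT library 1 or WT library 2, 3 genes were called.

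Germ cell markers moved with these testis values. The 6 markers summed to 118 to 223 FPKM in P8 WT testis, to 5219 to 6009 FPKM in P23 WT, 440 to 595 FPKM in P23 INSL3-KI and 129 to 149 FPKM in P23 INSL3-KO testis, and at P40 to 2812 to 3414 FPKM in WT and 140 to 381 FPKM in INSL3-KI. Their part in the levels of the 10 genes was not tested, and the P23 testis values are given without a test. Skeletal muscle markers stayed at or below 26.0 FPKM summed in every testis library.

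**Figure D5:**
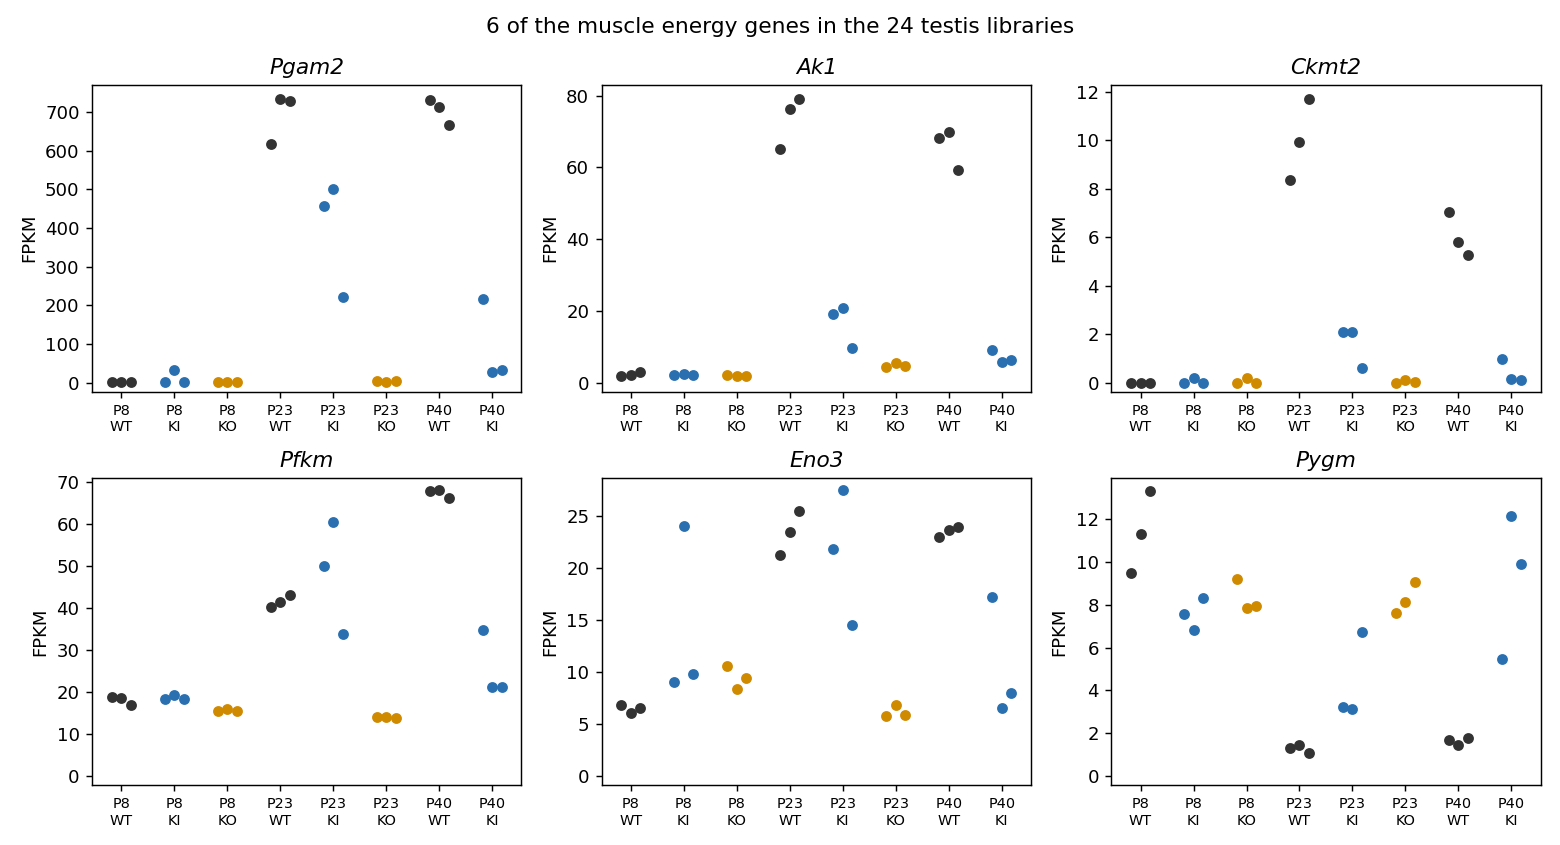
FPKM of 6 of the genes in the 24 testis libraries by age and genotype, 1 point per library, black for WT, blue for INSL3-KI and orange for INSL3-KO, with a linear axis of its own in each panel. Pgam2, Ak1 and Ckmt2 are high only in WT and partly in INSL3-KI testis from P23 on, while Pygm is lower in WT at P23 and P40 (at most 1.79 FPKM) than in INSL3-KI (at least 3.11 FPKM), with the P23 WT and INSL3-KI values from different tables.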

How the data were processed

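RNA-seq was done on 15 gubernaculum and 24 testis libraries of mice, grouped by the labels' titles. Per the study's methods and the submitters' processing notes, TRIzol RNA was made into mRNA libraries, read from both ends on an Illumina NovaSeq, and the authors mapped the reads with HISAT2 to GRCm38. The counting program is not given in the sources used here. The authors deposited raw counts per gene and FPKM (scaled to gene length and library size) in 2 tables each: 27 libraries in the first, and the 12 INSL3-KO and P23 WT testis libraries in the second. Tables were joined on Ensembl identifier, and genes in both were tested.

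Counts were tested in R 4.3.3 with edgeR 4.0.16 (filterByExpr, minimum count 10 and total 15, TMM, quasi-likelihood test) on the groups compared, with p-values adjusted by Benjamini-Hochberg over all genes tested. Genes were called at an adjusted p under 0.01 with at least a 2-fold change, as in the study. The SE of an edgeR log2 fold change was derived from the test, as its size divided by the square root of the F statistic. The study used DESeq2, run here (1.42.0) as an alternative, with shares given over genes that it gave an adjusted p. Others were limma 3.58.1 on log2(FPKM + 1) and log2(FPKM + 0.1), with 1 FPKM in 3 libraries as filter, no filter on counts, library size without TMM, an adjusted p under 0.05, a replicate block, all gubernaculum groups in 1 fit, and leaving out each library. The fit without both P23 libraries that stood apart was added after seeing the data. Scripts were tested on simulated data. CPM were computed with TMM over the 15 gubernaculum libraries. FPKM were used for levels, family shares, marker sums, ratios to markers, implied gene lengths and the limma fits. A fold against a group with 0 counts was set at a floor of 3 counts per library, which covers counting error only. Sequences are RefSeq's.

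The 10 genes and the other lists were chosen with earlier results of these data known. All 10 genes are named, as are their counterparts, except that values of 1 counterpart and 1 gene of the other lists are not reported here. From each other list the text names up to 3 genes with the largest fall and 2 with the largest rise among those called in P8 INSL3-KI against WT, and the 2 with the largest change at P23, besides the 5 genes most alike in profile. Other genes behind counts of 5 or fewer were named after their values were seen.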

Additional observations from a re-analysis of the deposited data

Results flagged for a closer look

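The effect of INSL3-KI at P8 differed between gubernaculum and testis for 6 of the 8 genes tested in both tissues, in a test of the difference itself (edgeR interaction term). The adjusted p was 9.388e-08 for Pfkm, 5.006e-07 for Ak1, 6.087e-07 for Pygm, 2.29e-06 for Eno3, 0.0004539 for Pgam2 and 0.0005892 for Ckm. All 6 had reads in every P8 INSL3-KI and WT testis library, of Ckm 5 to 58 counts. Each of the 6 was more negative in gubernaculum.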

How the results depend on the processing

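Counts of called genes stayed within 1.5 times the reported count in 145 of 177 alternatives, and of 1581 alternatives for single genes 1413 kept direction and call, 97 lost the call, 54 gained it and 17 changed sign. The share of all genes is not given beside most counts from alternatives, nor beside counts at an unadjusted p. Such counts show how far the calls moved, and not whether the 10 genes stand apart from other genes. Leaving out 1 library gave 10 to 10 calls for P8 INSL3-KI against WT, 8 to 8 for INSL3-KO against WT, 10 to 10 for INSL3-KI against INSL3-KO and for gubernaculum against testis, 0 to 10 for P23 INSL3-KI against WT, 1 to 5 for WT with age, 0 to 1 for P8 INSL3-KI testis, 3 to 7 for P40 testis, 0 to 1 for the age interaction and 6 to 6 for the tissue interaction over the 8 genes tested in both tissues. Whether the replicate numbers pair the libraries cannot be settled from 3 libraries a group. In no comparison did all 3 same-numbered pairs correlate above 0.1 in their deviations from group means. In P23 INSL3-KI against WT gubernaculum the 3 pairs gave -0.12, 0.34 and 0.46. INSL3-KI against WT testis had 2 pairs above 0.1 at P8 and 2 at P40. With a replicate block, 0 genes were called for P23 INSL3-KI, 1 for WT with age and 0 for P8 INSL3-KI testis. WT with age gave 10 calls at an adjusted p under 0.05 and 9 with DESeq2. P8 INSL3-KI testis gave 3 calls at 0.05 and 0 with limma at either pseudocount, and P8 INSL3-KO testis gave 3 at 0.05. The age interaction gave 5 calls at 0.05, 7 with DESeq2, 4 and 2 with limma at pseudocounts 1 and 0.1, 3 with all gubernaculum groups in 1 fit and 1 without both libraries that stood apart. Genes that changed sign were not called in the reported fit. For INSL3-KI with age, Ckm turned to -0.43 and -1.45 with limma and, leaving out 1 library, ranged from -0.13 to 1.30. Pgam2 turned to -0.0722 by library size, -0.0596 with the block and -0.14 and -0.22 with limma, and ranged from -0.61 to 0.48, and Mb ranged from -0.53 to 0.41. Mb in P8 INSL3-KO ranged from -0.18 to 0.21. In P8 INSL3-KI testis Pgam2 ranged from -0.47 (without library 2) to 3.75, and Pfkm turned to 0.0173 by library size and 0.0410 and 0.0430 with limma. Mb in the tissue interaction ranged from -2.58 to 3.68 (without INSL3-KI testis library 3). The causes were not tested. Scaling by library size alone moved the median of all genes to 0.34 in P8 INSL3-KI, 0.20 in INSL3-KO, 0.41 in P23 INSL3-KI, -0.42 in gubernaculum against testis and 0.70 in P40 testis, and the share of called genes that were lower in P8 INSL3-KI from 40.2% to 26.5%. Genes called lower at P23 numbered 355 in the reported fit, 1393 with DESeq2, 1467 with all groups in 1 fit and 0 with the block. The floor of 3 counts limits the fold of genes at 0, and 3 libraries a group limit every test.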
